A study of Mus musculus with 2 samples.

Results

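Genomic imprinting was followed across the tissues of the mouse embryo at the onset of gastrulation through 35 imprinted genes. They were named as a list by symbol and not by a cut on their values, but with earlier results of these data known. All 35 were among the 32285 counted genes, all 35 reached 20 unique molecular identifiers (UMIs, each marking 1 captured transcript) over both libraries, and 17922 genes in all did so. Each of 2 libraries held the cells of several pooled embryos at embryonic day 7 (E7), made with the 10x 3′ single-cell chemistry. The control library is labelled WT. For the sequenced embryos the study names heterozygous Sox2-Cre:Yap1 flox/+ controls, while its breeding section describes control littermates as floxed and without Cre. The other library, labelled cYAPKO, came from Sox2-Cre:Yap1 flox/flox embryos (Yap1 cKO), in which Cre driven by Sox2 deletes Yap1, a transcriptional coactivator of the Hippo pathway, in the epiblast and its descendants and is not described as acting in trophoblast or visceral endoderm. By the study's methods those extraembryonic tissues probably carried 1 deleted allele in both groups. With 1 library per genotype there was no replicate and no test, so every interval given here is a 95% interval for counting error alone, and the genotype, the pool of embryos and the library cannot be told apart.

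An imprinted gene is transcribed mainly from the copy inherited from 1 parent, because a methylation mark set in the egg or sperm silences a nearby promoter or insulator on only 1 copy. By locus, the marked copy can be the silent or the transcribed one. Most imprinted genes sit in clusters that share such a control region, often with a long noncoding RNA transcribed from it. Paternally expressed genes such as *Igf2* and *Peg10* are known for promoting growth of the fetus and placenta, and maternally expressed ones such as *Cdkn1c*, *Phlda2* and *Grb10* for restraining it. Placental tissue is known for imprinting of its own, part of which rests on histone marks in place of DNA methylation. The counts used here add both parental copies, so they give the level of each gene and not which copy was read.

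The 35 genes lie on 11 chromosomes, 15 of them on chromosome 7 (GRCm38, GENCODE M21 annotation). The DNA upstream of a start of 6 genes at which the lineages or populations differed is shown here with its CG dinucleotides, the letters that carry DNA methylation. None of these windows was chosen as an imprint control region. Each line gives the 250 bases before a RefSeq start of the gene in GRCm38, read 5′ to 3′ along the gene's strand, with every CG in capitals. For a gene with several starts, the window with the most CG was taken among those holding none of its annotated exons. At *Sfmbt2*, *Grb10* and *Snrpn* the start taken lies inside the annotated gene, so the window is upstream of that start only. *Ascl2* (chr7:142969265-142969514, minus strand) and *Sfmbt2* (chr2:10372186-10372435, plus strand) were highest in trophoblast, though *Sfmbt2* was high in endoderm too. *Grb10* (chr11:12037421-12037670, minus strand) was highest in anterior visceral endoderm-like cells. *Dlk1* (chr12:109452573-109452822, plus strand) and *Meg3* (chr12:109540746-109540995, plus strand) are a reciprocally imprinted pair, and *Snrpn* (chr7:60047979-60048228, minus strand) is the embryonic gene.
Ascl2: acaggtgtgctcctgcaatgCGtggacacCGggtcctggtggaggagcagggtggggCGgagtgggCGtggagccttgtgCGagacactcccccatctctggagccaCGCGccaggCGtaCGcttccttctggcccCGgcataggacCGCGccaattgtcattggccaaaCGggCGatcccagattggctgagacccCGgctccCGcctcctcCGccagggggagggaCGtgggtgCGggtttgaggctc
Sfmbt2: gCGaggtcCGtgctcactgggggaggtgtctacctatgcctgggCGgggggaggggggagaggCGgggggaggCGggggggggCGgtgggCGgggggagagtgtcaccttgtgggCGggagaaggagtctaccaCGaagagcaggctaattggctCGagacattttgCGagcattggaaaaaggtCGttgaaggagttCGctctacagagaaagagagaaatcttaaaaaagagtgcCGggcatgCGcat
Grb10: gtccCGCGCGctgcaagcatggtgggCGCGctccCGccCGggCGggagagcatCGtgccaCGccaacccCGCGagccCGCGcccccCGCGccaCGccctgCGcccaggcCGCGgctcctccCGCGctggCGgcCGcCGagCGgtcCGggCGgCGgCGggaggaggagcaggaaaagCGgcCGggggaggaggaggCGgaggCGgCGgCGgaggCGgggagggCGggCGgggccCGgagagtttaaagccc
Dlk1: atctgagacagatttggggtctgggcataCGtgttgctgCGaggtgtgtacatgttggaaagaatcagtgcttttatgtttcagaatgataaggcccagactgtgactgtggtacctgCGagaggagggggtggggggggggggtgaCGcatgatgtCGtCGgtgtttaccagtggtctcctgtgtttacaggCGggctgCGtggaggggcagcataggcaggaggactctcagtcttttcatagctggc
Meg3: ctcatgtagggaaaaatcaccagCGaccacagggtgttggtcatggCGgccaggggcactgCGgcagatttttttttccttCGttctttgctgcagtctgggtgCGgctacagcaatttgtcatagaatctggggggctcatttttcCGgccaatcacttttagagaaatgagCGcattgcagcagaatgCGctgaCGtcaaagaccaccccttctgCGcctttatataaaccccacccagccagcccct
Snrpn: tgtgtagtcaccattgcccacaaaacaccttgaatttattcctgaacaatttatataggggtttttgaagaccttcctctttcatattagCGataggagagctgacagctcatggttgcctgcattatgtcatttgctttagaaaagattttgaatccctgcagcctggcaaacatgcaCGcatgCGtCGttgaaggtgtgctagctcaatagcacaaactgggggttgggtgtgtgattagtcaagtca

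These windows held between 4 CG dinucleotides, at *Snrpn*, and 40, at *Grb10*, with 8 at *Dlk1*, 10 at *Meg3*, 15 at *Sfmbt2* and 19 at *Ascl2*. The starts not printed held fewer, with 8 at *Grb10*, 0 at *Meg3*, 8 at *Sfmbt2* and 2 or 3 at *Snrpn*. Over the 47 RefSeq starts of the 29 genes that had such a window, some of which overlap each other, the count ran from 0 to 40 with a median of 10, against a median of 6 over 32851 starts of all genes. The letters TGCCGC or their reverse complement GCGGCA, whose methylated form the imprint-protecting factor ZFP57 binds, were in 14.9% of the 47 windows, at 6 genes, and in 8.68% of all windows. *Meg3* was the only one of the 6 printed windows to hold them. A match in these letters is a description and not a bound site.

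Cells were assigned by summed levels of marker genes, none of them one of the 35. Of 1829 barcodes in the control library and 1897 in the Yap1 cKO library, 791 and 864 had at least 5000 detected genes, 790 and 860 stayed after removal of 1 and 4 called doublets, and 762 and 826 fell into a lineage. The embryonic lineage (epiblast and its descendants) held 496 control and 515 Yap1 cKO cells, trophoblast 180 and 100, and endoderm 86 and 211. Its lateral mesoderm-like population was gated on markers of lateral and extraembryonic mesoderm together (*Foxf1*, *Hand1*, *Hand2*, *Tbx20* and *Bmp4*). Extraembryonic mesoderm is thus counted here as embryonic, and extraembryonic lineages means trophoblast and endoderm. Median depth per kept cell was 75798 UMIs (control) and 81378 UMIs (Yap1 cKO). Taken by lineage, *Yap1* itself was at 29.9 and 1.71 CPM (counts per 1000000 UMIs) in embryonic cells of the control and Yap1 cKO libraries. This is the loss that the cYAPKO label names. *Yap1* was at 24.9 (22.6 to 27.4) and 18.7 (16.3 to 21.2) in trophoblast cells, and at 32.2 and 26.2 in endoderm cells. The trophoblast intervals did not overlap, so *Yap1* was somewhat lower there too. Within endoderm, anterior visceral endoderm-like cells (20 control and 24 Yap1 cKO cells) stood apart, with *Yap1* at 40.02 and 12.7 CPM. These cells are named by their markers alone and are counted here as endoderm. Whether some of them descend from the epiblast was not tested. The labels call both libraries female, whereas 51.7% of control and 15.6% of Yap1 cKO cells carried Y-linked and no *Xist* UMIs, so each pool held embryos of both sexes in different shares. The libraries shared 2 barcodes, neither of them in a kept cell.

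The extraembryonic lineages differed from the embryonic cells at 25 of the 35 imprinted genes, each by at least 2-fold in the same direction in both libraries for at least 1 of the lineages, beside 41.9% of all genes. In trophoblast, 8 of the 35 genes were at least 2-fold higher than in embryonic cells in both libraries, with intervals that did not include 1, and 10 were at least 2-fold lower. Among all 17922 genes the same rule was met by 8.13% for higher and 18.5% for lower. In endoderm 13 of the 35 were higher and 7 lower, against 13.5% and 17.2% of all genes. The median log2 ratio of the 35 genes for trophoblast was -0.26 in control and -0.13 in Yap1 cKO cells, beside -0.24 and -0.25 over all genes, and 0.10 and 0.15 for endoderm, beside -0.28 and -0.26. As shares of the 35, the counts are 22.9% and 28.6% for trophoblast and 37.1% and 20% for endoderm. The higher genes include paternally expressed (*Igf2*, *Peg10*) and maternally expressed (*H19*, *Igf2r*) ones. The trophoblast and endoderm ratios share the embryonic cells as their base.

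**Figure D1:**
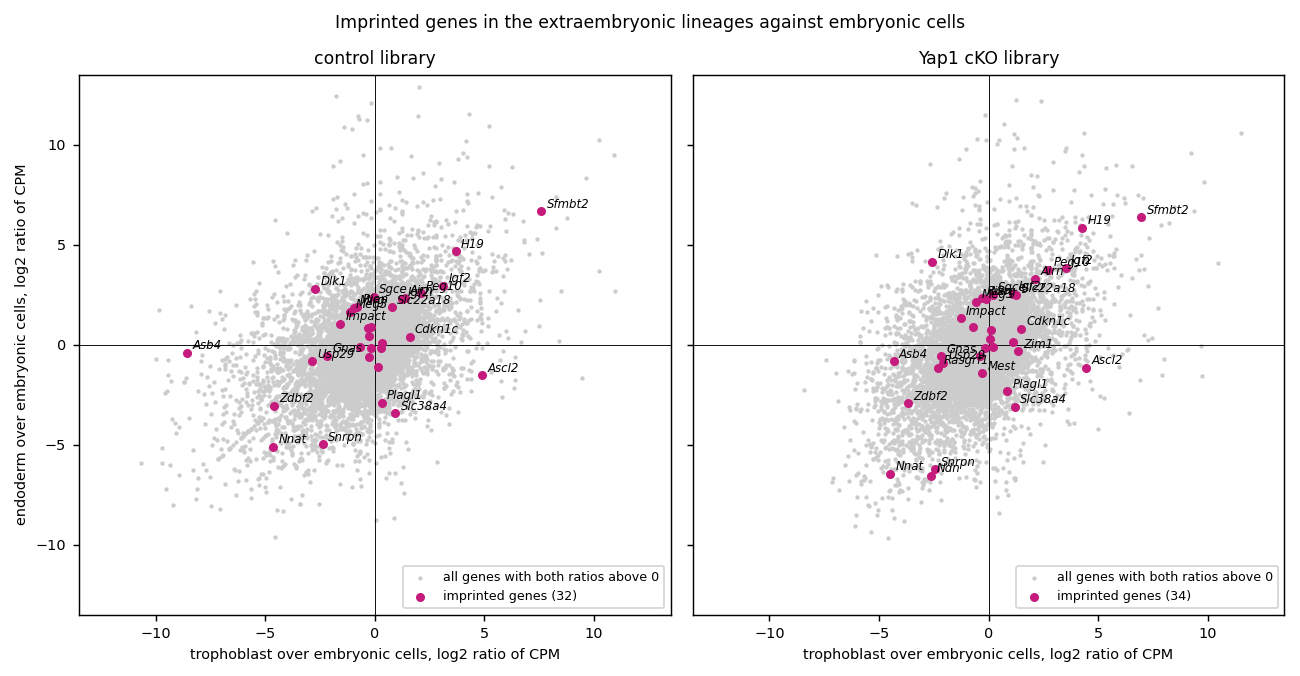
Log2 ratio of the CPM in trophoblast cells (x axis) and in endoderm cells (y axis) to that in embryonic cells, with all genes in grey and the imprinted genes whose ratios are above 0 in color (32 in control, 34 in Yap1 cKO), 1 panel per library. Sfmbt2, H19 and Igf2 lie high on both axes and Snrpn and Nnat low on both, while Ascl2 is high in trophoblast alone and Dlk1 in endoderm alone.

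At the *Igf2-H19* locus on chromosome 7, both genes were far higher in the extraembryonic lineages. *H19*, a maternally expressed long noncoding RNA, stood at 40.2 CPM in embryonic, 518 in trophoblast and 1018 in endoderm cells of the control library, and at 22.7, 437 and 1287 CPM in the Yap1 cKO library (1102 to 22093 UMIs). Trophoblast over embryonic cells gave a ratio of 12.9 (12.2 to 13.6) with control cells and 19.2 (18.04 to 20.6) with Yap1 cKO cells, and endoderm over embryonic cells one of 25.3 (23.98 to 26.8) with control cells and 56.7 (53.3 to 60.3) with Yap1 cKO cells. *Igf2*, the paternally expressed insulin-like growth factor, moved with it. It stood at 21.2 CPM in embryonic, 182 in trophoblast and 163 in endoderm cells of the control library, and at 13.2, 152 and 189.5 CPM in the Yap1 cKO library (643 to 3253 UMIs). The ratio in trophoblast was 8.58 (7.94 to 9.27) with control cells and 11.5 (10.5 to 12.6) with Yap1 cKO cells, and its endoderm ratio 7.67 (6.998 to 8.42) with control cells and 14.3 (13.1 to 15.6) with Yap1 cKO cells. These genes share enhancers and are read from opposite parental copies, and both were highest in the same 3 extraembryonic populations.

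Within the embryonic lineage *H19* and *Igf2* were highest in lateral mesoderm-like and blood progenitor-like cells. *H19* was at 5.46 and 4.58 CPM in epiblast-like, 8.65 and 2.85 in primitive streak-like and 10.01 and 14.6 in nascent mesoderm-like cells of the control and Yap1 cKO libraries. In lateral mesoderm-like cells it reached 177 and 133 CPM and in blood progenitor-like cells 184 and 136. The top of the order was visceral endoderm-like cells at 1067 and 1347 CPM, followed by anterior visceral endoderm-like cells at 766 and 752 and trophoblast-like cells at 518 and 437. *Igf2* ran from 0.857 and 1.25 CPM in epiblast-like to 96.3 and 80.2 in lateral mesoderm-like and 111 and 90.8 in blood progenitor-like cells. The lateral and blood values of *H19* did not differ beyond their counting error within either library.

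After each cell was thinned to 39000 UMIs, *H19* was found in 21.6% (16.4% to 27.5%) and 20% (14.4% to 26.6%) of epiblast-like cells of the control and Yap1 cKO libraries. The share was 90.6% (79.3% to 96.9%) and 74.2% (55.4% to 88.1%) in lateral mesoderm-like cells and 100% of visceral endoderm-like, anterior visceral endoderm-like and trophoblast-like cells of both. Without thinning, the epiblast-like shares were 35.6% and 34.2%, at median depths of 72099 and 84834 UMIs, against median depths of 81960 and 77139 in visceral endoderm-like cells. The low epiblast-like share may include free RNA and was not taken as expression in those cells.

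The *Kcnq1ot1* domain, next to the *Igf2-H19* locus on chromosome 7, split by lineage gene by gene. *Ascl2*, a transcription factor needed for the placental trophoblast, stood at 1.39 CPM in embryonic, 41.5 in trophoblast and 0.479 in endoderm cells of the control library, and at 1.83, 40.4 and 0.816 CPM in the Yap1 cKO library (3 to 706 UMIs). In trophoblast the ratio was 29.8 (22.6 to 39.98) with control cells and 22 (17.5 to 27.9) with Yap1 cKO cells, and no other population of either library was above 6.36 CPM. *Cdkn1c*, an inhibitor of cyclin-dependent kinases, stood at 36.8 CPM in embryonic, 110 in trophoblast and 48.5 in endoderm cells of the control library, and at 40.5, 114 and 69.6 CPM in the Yap1 cKO library (304 to 1965 UMIs). Its trophoblast ratio of 2.99 (2.79 to 3.204) with control cells and 2.81 (2.62 to 3.005) with Yap1 cKO cells passed the 2-fold rule, and its endoderm ratio of 1.32 (1.16 to 1.49) with control cells and 1.72 (1.598 to 1.85) with Yap1 cKO cells did not.

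*Phlda2*, a pleckstrin-homology protein that limits placental growth, stood at 559 CPM in embryonic, 623 in trophoblast and 253 in endoderm cells of the control library, and at 303, 659 and 336 CPM in the Yap1 cKO library (1588 to 22090 UMIs). The populations within the lineages differed more than the lineages did. *Phlda2* was at 12.5 and 14.9 CPM in epiblast-like cells, 612 and 432 in nascent mesoderm-like, 3202 and 2313 in lateral mesoderm-like and 1443 and 1202 in blood progenitor-like cells. In endoderm it separated the visceral endoderm-like cells, at 302 and 372 CPM, from the anterior visceral endoderm-like cells, at 6.83 and 14.5. Node-like cells, at 8.28 and 16.3 CPM, were as low as the anterior ones.

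*Slc22a18*, a membrane transporter gene beside *Phlda2*, was low everywhere and stood at 1.44 CPM in embryonic, 2.47 in trophoblast and 5.26 in endoderm cells of the control library, and at 0.762, 1.83 and 4.19 CPM in the Yap1 cKO library (23 to 72 UMIs). Its endoderm ratio was 3.65 (2.301 to 5.697) with control cells and 5.5 (3.65 to 8.41) with Yap1 cKO cells, a call that was lost with populations weighted equally (1.98 and 2.76) and in Y-bearing cells (5.91 and 1.62). The noncoding RNA *Kcnq1ot1*, which silences the domain in cis on the paternal copy, passed neither lineage rule and ran from 59.2 and 41.9 CPM in trophoblast-like to 132 and 130 in visceral endoderm-like cells. *Nap1l4*, a histone chaperone gene, and *Tssc4* at the edges of the domain also passed neither. *Nap1l4* stayed between 140.1 and 203 CPM in all 9 populations of both libraries.

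The *Dlk1-Meg3* locus on chromosome 12 was high in endoderm for genes of both parental origins. *Dlk1*, a paternally expressed membrane protein related to Notch ligands, stood at 8.91 CPM in embryonic, 1.35 in trophoblast and 60.9 in endoderm cells of the control library, and at 5.25, 0.877 and 91.5 CPM in the Yap1 cKO library (11 to 1571 UMIs). Its endoderm ratio was 6.84 (5.9 to 7.92) with control cells and 17.4 (15.2 to 19.96) with Yap1 cKO cells and its trophoblast ratio 0.152 (0.09495 to 0.231) with control cells and 0.167 (0.0823 to 0.304) with Yap1 cKO cells, so that it was high in one extraembryonic lineage and low in the other. Visceral endoderm-like cells held 68.8 and 96.6 CPM and lateral mesoderm-like cells 58.5 and 46.8, but 60 of the 112 UMIs of the latter population in the Yap1 cKO library came from 1 cell.

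*Meg3*, the first of the maternally expressed noncoding RNAs that follow *Dlk1*, stood at 208 CPM in embryonic, 95.8 in trophoblast and 650.2 in endoderm cells of the control library, and at 168, 115 and 737 CPM in the Yap1 cKO library (1437 to 12659 UMIs). *Rian*, which hosts small nucleolar RNAs, stood at 113 CPM in embryonic, 64.2 in trophoblast and 421 in endoderm cells of the control library, and at 99.1, 79.97 and 495 CPM in the Yap1 cKO library (1003 to 8499 UMIs). *Mirg*, which hosts microRNAs, stood at 13.9 CPM in embryonic, 7.23 in trophoblast and 49.9 in endoderm cells of the control library, and at 10.7, 9.73 and 51.7 CPM in the Yap1 cKO library (122 to 887 UMIs). These 3 RNAs, transcribed in 1 direction along the locus, had close endoderm ratios. The ratio of *Meg3* was 3.13 (3.01 to 3.25) with control cells and 4.38 (4.26 to 4.51) with Yap1 cKO cells, that of *Rian* 3.74 (3.56 to 3.92) with control cells and 4.998 (4.82 to 5.18) with Yap1 cKO cells and that of *Mirg* 3.59 (3.12 to 4.13) with control cells and 4.84 (4.34 to 5.41) with Yap1 cKO cells. All 3 RNAs were highest, among the embryonic populations of both libraries, in epiblast-like cells. *Meg3* was at 299 and 240.4 CPM in epiblast-like cells, 184 and 165 in primitive streak-like and 64.7 and 79.4 in nascent mesoderm-like cells. *Rian* was at 156 and 140.4 CPM in epiblast-like and 42.7 and 52.96 in nascent mesoderm-like cells, and *Mirg* at 19.4 and 15.1 in the former and 4.901 and 4.74 in the latter. *Dlk1* went the other way between these populations, at 0.321 and 1.09 CPM in epiblast-like and 8.98 and 5.77 in nascent mesoderm-like cells.

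**Figure D2:**
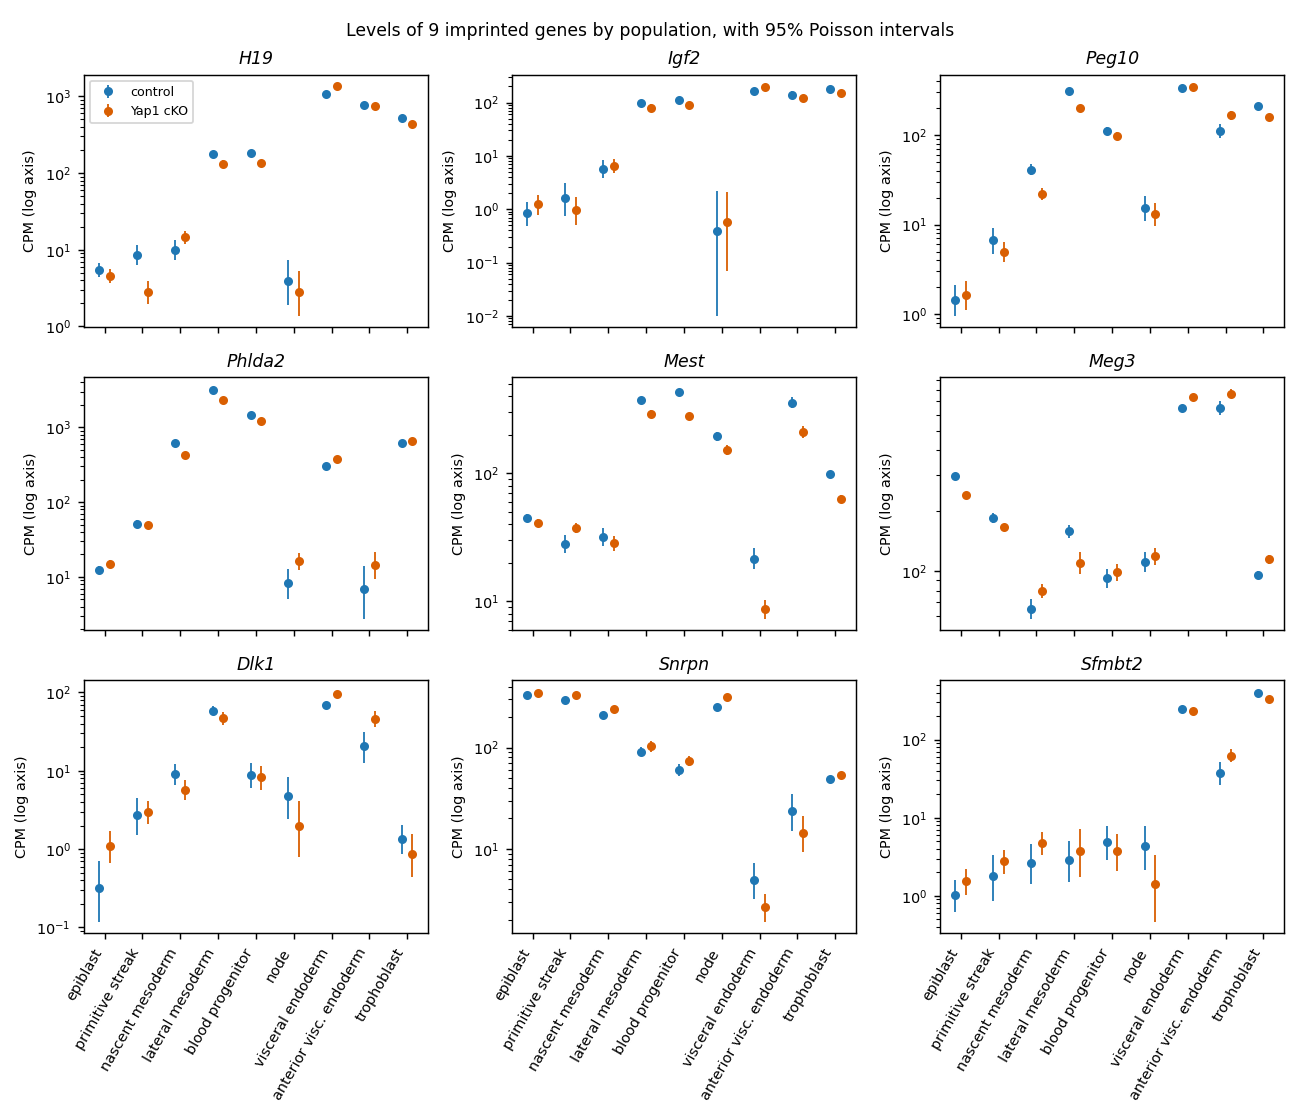
Level (CPM, log axis) of 9 imprinted genes in each of the 9 populations, with 1 point per library (control and Yap1 cKO) and bars for the 95% Poisson interval of the summed count. H19 and Igf2 climb from epiblast-like to lateral mesoderm-like cells and again in the extraembryonic populations, Snrpn falls in endoderm, and Sfmbt2 separates the extraembryonic populations from all embryonic ones.

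At *Igf2r-Airn* on chromosome 17 both partners were higher in trophoblast and endoderm than in embryonic cells. *Igf2r*, the maternally expressed receptor that clears IGF2, stood at 23.5 CPM in embryonic, 55.2 in trophoblast and 113 in endoderm cells of the control library, and at 21.6, 47.2 and 124 CPM in the Yap1 cKO library (592 to 2132 UMIs). *Airn*, the paternally expressed antisense RNA that silences it in cis, stood at 22.3 CPM in embryonic, 57.2 in trophoblast and 114 in endoderm cells of the control library, and at 12.6, 54.8 and 124 CPM in the Yap1 cKO library (609 to 2122 UMIs). The trophoblast ratio of *Igf2r* was 2.35 (2.14 to 2.58) with control cells and 2.18 (1.97 to 2.42) with Yap1 cKO cells and its endoderm ratio 4.81 (4.35 to 5.31) with control cells and 5.75 (5.33 to 6.19) with Yap1 cKO cells. That of *Airn* was 2.56 (2.34 to 2.81) with control cells and 4.36 (3.91 to 4.88) with Yap1 cKO cells for trophoblast and 5.1 (4.61 to 5.63) with control cells and 9.85 (8.996 to 10.8) with Yap1 cKO cells for endoderm. With the populations of a lineage weighted equally, neither gene passed the 2-fold rule in trophoblast, *Igf2r* being at 2.02 and 1.83 and *Airn* at 1.73 and 2.41 in the control and Yap1 cKO libraries. *Igf2r* also missed it in Y-bearing cells, at 2.25 and 1.64. The genes overlap by 28354 bases on opposite strands, and the counting program assigns reads by strand.

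The locus of *Peg10* on chromosome 6 held genes with 3 different patterns. *Peg10*, a retrotransposon-derived gene needed for the placenta, stood at 50.4 CPM in embryonic, 214 in trophoblast and 297 in endoderm cells of the control library, and at 24.4, 160 and 327 CPM in the Yap1 cKO library (1186 to 5610 UMIs). Trophoblast gave a ratio of 4.25 (4.02 to 4.49) with control cells and 6.55 (6.09 to 7.04) with Yap1 cKO cells and its endoderm ratio 5.89 (5.53 to 6.28) with control cells and 13.4 (12.6 to 14.2) with Yap1 cKO cells. It was also high in lateral mesoderm-like cells, at 314 and 200 CPM, and low in epiblast-like cells, at 1.45 and 1.63. *Sgce*, which starts beside *Peg10* and runs the other way, encodes epsilon-sarcoglycan and stood at 9.82 CPM in embryonic, 9.41 in trophoblast and 51.7 in endoderm cells of the control library, and at 9.15, 10.5 and 50.9 CPM in the Yap1 cKO library (132 to 873 UMIs). Its endoderm ratio was 5.26 (4.53 to 6.11) with control cells and 5.56 (4.95 to 6.24) with Yap1 cKO cells, and its trophoblast ratio of 0.958 (0.792 to 1.15) with control cells and 1.15 (0.9398 to 1.4) with Yap1 cKO cells did not pass.

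*Asb4*, a maternally expressed component of ubiquitin ligases at the same locus, was close to absent from trophoblast. It stood at 22.5 CPM in embryonic, 0.0588 in trophoblast and 16.9 in endoderm cells of the control library, and at 25.6, 1.28 and 14.3 CPM in the Yap1 cKO library (1 to 1242 UMIs), with 1 UMI in 180 control trophoblast cells. Its trophoblast ratio was 0.00262 (6.62e-05 to 0.0146) with control cells and 0.0498 (0.0284 to 0.0813) with Yap1 cKO cells. Its highest levels were in mesoderm, with 74.3 and 113 CPM in lateral mesoderm-like and 64.9 and 102 in blood progenitor-like cells, against 2.46 and 3.704 in epiblast-like cells.

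*Snrpn* and its neighbours on chromosome 7, all paternally expressed, marked the embryonic lineage. *Snrpn*, a spliceosomal protein gene, stood at 255 CPM in embryonic, 48.9 in trophoblast and 7.98 in endoderm cells of the control library, and at 288, 53.2 and 3.85 CPM in the Yap1 cKO library (50 to 13999 UMIs). The ratio in trophoblast was 0.192 (0.179 to 0.206) with control cells and 0.184 (0.1703 to 0.199) with Yap1 cKO cells and its endoderm ratio 0.0313 (0.0232 to 0.0413) with control cells and 0.0133 (0.0103 to 0.01697) with Yap1 cKO cells. Within the embryonic lineage it was highest in epiblast-like cells, at 329 and 346 CPM, and lowest in blood progenitor-like cells, at 59.8 and 73.5. At 39000 UMIs a cell it was found in 99.1% (96.8% to 99.9%) and 100% (97.97% to 100%) of epiblast-like and 21.3% (11.9% to 33.7%) and 9.76% (5.68% to 15.4%) of visceral endoderm-like cells. *Snrpn* shares strand and sequence with *Snurf*, with which it is transcribed, so its count is uncertain to that extent.

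*Ndn*, a growth-suppressing MAGE family gene, stood at 16.2 CPM in embryonic, 1.18 in trophoblast and 0 in endoderm cells of the control library, and at 16.6, 2.71 and 0.175 CPM in the Yap1 cKO library (0 to 805 UMIs). In trophoblast the ratio was 0.0727 (0.0441 to 0.113) with control cells and 0.163 (0.112 to 0.2303) with Yap1 cKO cells, and the 0 UMIs in 86 control endoderm cells allow at most 0.0296 of the embryonic level. *Magel2*, a second MAGE family gene, stood at 6.61 CPM in embryonic, 0 in trophoblast and 0 in endoderm cells of the control library, and at 5.17, 0.0797 and 0 CPM in the Yap1 cKO library (0 to 261 UMIs). No UMI of *Magel2* was found in the endoderm of either library, which allows at most 0.0724 and 0.0338 of the embryonic level. All 3 genes of the locus were low in both extraembryonic lineages, and *Snrpn* and *Ndn* were lower in endoderm than in trophoblast in both libraries.

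At the *Peg3* domain on chromosome 7, *Peg3*, a paternally expressed zinc finger gene, stood at 210.5 CPM in embryonic, 176 in trophoblast and 279 in endoderm cells of the control library, and at 154, 166 and 253 CPM in the Yap1 cKO library (1747 to 8313 UMIs). It passed neither lineage rule, with a trophoblast ratio of 0.837 (0.803 to 0.873) with control cells and 1.08 (1.03 to 1.13) with Yap1 cKO cells. Its range was within the embryonic lineage, from 61.4 and 76.4 CPM in epiblast-like to 648 and 372 in lateral mesoderm-like cells. *Usp29*, a deubiquitinase-like gene that starts beside *Peg3* on the other strand, stood at 19.1 CPM in embryonic, 2.59 in trophoblast and 10.7 in endoderm cells of the control library, and at 14.3, 3.35 and 7.51 CPM in the Yap1 cKO library (42 to 753 UMIs). Trophoblast gave a ratio of 0.136 (0.0978 to 0.184) with control cells and 0.234 (0.167 to 0.3198) with Yap1 cKO cells. *Zim1*, a maternally expressed zinc finger gene, had 7 to 50 UMIs per lineage and library and passed neither rule.

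At *Mest-Copg2* on chromosome 6, *Mest*, a paternally expressed hydrolase-like gene named for mesoderm, stood at 119.5 CPM in embryonic, 98.4 in trophoblast and 76.4 in endoderm cells of the control library, and at 78.4, 63.3 and 29.01 CPM in the Yap1 cKO library (479 to 4721 UMIs). Neither lineage ratio passed the rule in both libraries. By population it was highest in blood progenitor-like cells at 434 and 282 CPM, lateral mesoderm-like cells at 376 and 293 and anterior visceral endoderm-like cells at 357 and 210.5, and it was at 21.6 and 8.68 in visceral endoderm-like cells. Of the 113 *Mest* UMIs in control visceral endoderm-like cells, 66 came from 1 cell. *Copg2*, a coat protein gene on the other strand, stayed between 24.6 and 49.8 CPM in the 9 populations.

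Among the imprinted genes outside these clusters, *Sfmbt2* on chromosome 2 had the widest lineage ratios. This Polycomb gene is known for paternal expression in extraembryonic tissue, and stood at 2.08 CPM in embryonic, 398 in trophoblast and 209.8 in endoderm cells of the control library, and at 2.64, 329 and 216 CPM in the Yap1 cKO library (82 to 6766 UMIs). Its trophoblast ratio was 192 (154 to 241) with control cells and 125 (105 to 149.9) with Yap1 cKO cells and its endoderm ratio 101 (80.8 to 128) with control cells and 81.9 (68.7 to 98.5) with Yap1 cKO cells. It was found in 100% of thinned trophoblast-like cells of both libraries and in 3.96% (1.83% to 7.39%) and 4.44% (1.94% to 8.57%) of epiblast-like cells. Its level was 37.1 and 62.5 CPM in the anterior visceral endoderm-like population, against 244 and 233 in the remaining visceral endoderm-like cells.

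*Gnas*, the stimulatory G protein subunit on chromosome 2, stood at 574 CPM in embryonic, 125 in trophoblast and 389 in endoderm cells of the control library, and at 542, 120.5 and 362 CPM in the Yap1 cKO library (1511 to 26317 UMIs). The ratio in trophoblast was 0.218 (0.208 to 0.228) with control cells and 0.222 (0.211 to 0.234) with Yap1 cKO cells, while all 6 embryonic populations lay between 476 and 716 CPM. *Nnat*, a small membrane protein gene, stood at 55.7 CPM in embryonic, 2.23 in trophoblast and 1.59 in endoderm cells of the control library, and at 66.9, 2.95 and 0.757 CPM in the Yap1 cKO library (10 to 3244 UMIs). In trophoblast the ratio was 0.0402 (0.0283 to 0.0553) with control cells and 0.0441 (0.03101 to 0.0609) with Yap1 cKO cells and its endoderm ratio 0.0287 (0.0137 to 0.0528) with control cells and 0.0113 (0.00602 to 0.0194) with Yap1 cKO cells. *Zdbf2*, a paternally expressed gene known for postnatal growth, stood at 53.5 CPM in embryonic, 2.18 in trophoblast and 6.38 in endoderm cells of the control library, and at 48.4, 3.75 and 6.35 CPM in the Yap1 cKO library (37 to 2349 UMIs). Trophoblast gave a ratio of 0.0407 (0.0286 to 0.0563) with control cells and 0.0774 (0.0567 to 0.103) with Yap1 cKO cells and its endoderm ratio 0.119 (0.085 to 0.163) with control cells and 0.131 (0.107 to 0.159) with Yap1 cKO cells. *Nnat* and *Zdbf2* were thus low in both extraembryonic lineages, and *Gnas* in trophoblast.

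*Impact*, a translation regulator gene, stood at 29.7 CPM in embryonic, 9.82 in trophoblast and 61.1 in endoderm cells of the control library, and at 27.1, 11.2 and 67.7 CPM in the Yap1 cKO library (141 to 1316 UMIs). It was lower in trophoblast, with a ratio of 0.331 (0.2795 to 0.389) with control cells and 0.414 (0.346 to 0.493) with Yap1 cKO cells, and higher in endoderm, with 2.06 (1.83 to 2.31) with control cells and 2.496 (2.304 to 2.703) with Yap1 cKO cells. The endoderm call was lost with cells weighted equally (1.92 and 2.42), with populations weighted equally (1.48 and 1.73) and in Y-bearing cells (1.82 and 2.501). *Slc38a4*, an amino acid transporter gene, stood at 39.5 CPM in embryonic, 75.5 in trophoblast and 3.67 in endoderm cells of the control library, and at 27.9, 63.6 and 3.204 CPM in the Yap1 cKO library (23 to 1562 UMIs). It was the reverse of *Impact* in endoderm, with a ratio of 0.0928 (0.0586 to 0.1397) with control cells and 0.115 (0.08604 to 0.1504) with Yap1 cKO cells, and its trophoblast ratio of 1.91 (1.77 to 2.06) with control cells and 2.28 (2.09 to 2.49) with Yap1 cKO cells did not pass. *Plagl1*, a zinc finger gene, stood at 1.19 CPM in embryonic, 1.47 in trophoblast and 0.1595 in endoderm cells of the control library, and at 0.886, 1.59 and 0.175 CPM in the Yap1 cKO library (1 to 47 UMIs). Its endoderm ratio was 0.134 (0.00332 to 0.784) with control cells and 0.197 (0.0391 to 0.616) with Yap1 cKO cells, resting on 1 and 3 endoderm UMIs, and the call was lost with either equal weight and in Y-bearing cells. *Rasgrf1*, an exchange factor gene, had 0 to 19 UMIs per lineage and library and passed no rule.

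*Grb10*, an adaptor that dampens insulin and IGF receptor signalling, passed neither lineage rule but marked 1 population. It was at 1329 and 832 CPM in anterior visceral endoderm-like cells of the control and Yap1 cKO libraries. The next population, lateral mesoderm-like, was at 249.9 and 219 CPM, and the remaining visceral endoderm-like cells, at 85.05 and 65.4, were the lowest of all 9. *Grb10* and *H19* gave the endoderm populations in opposite order.

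**Figure D3:**
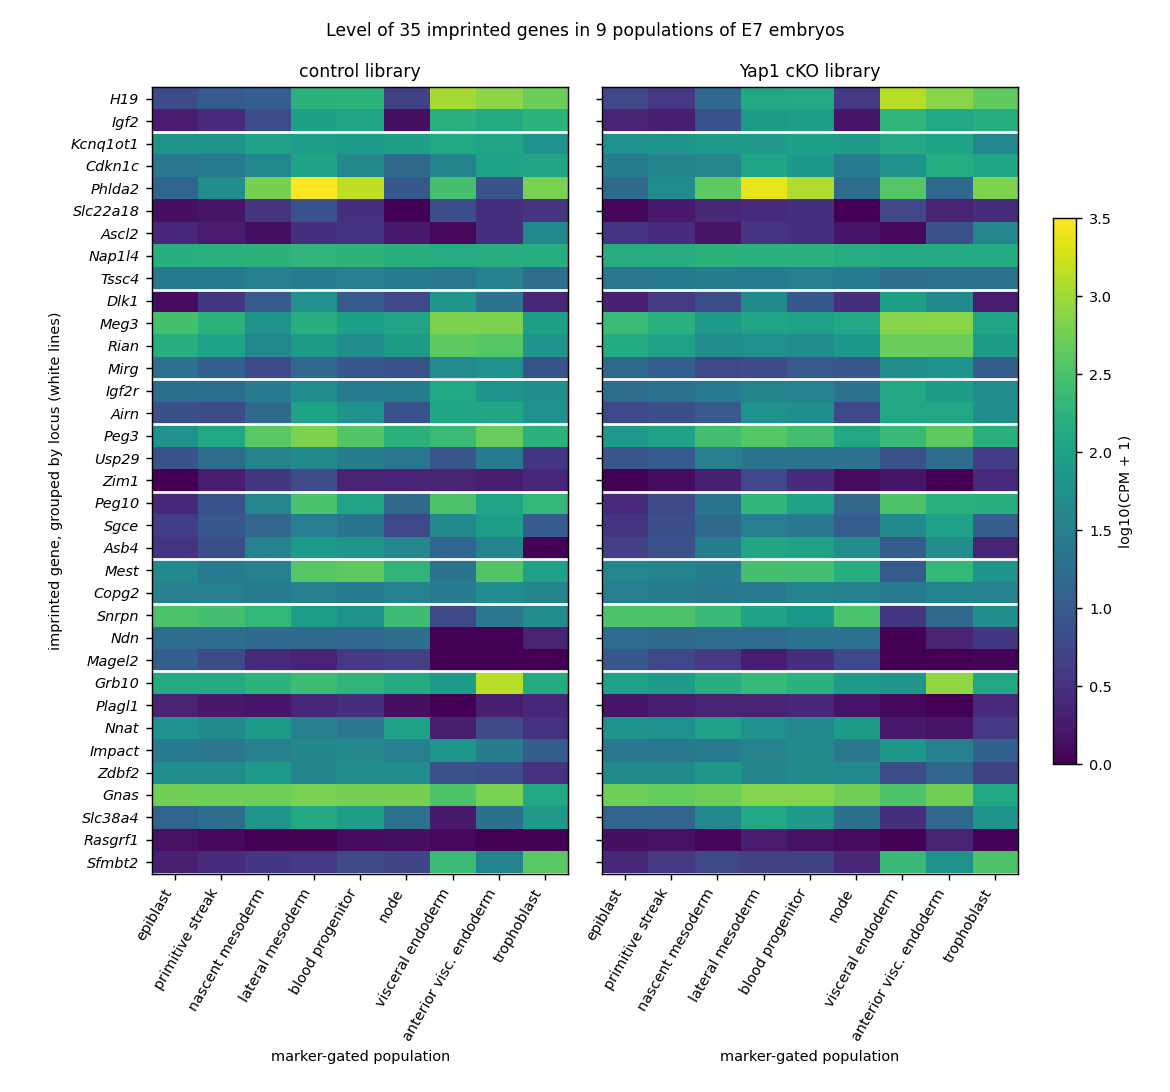
Levels of the 35 imprinted genes (rows, grouped by locus between white lines) in the 9 marker-gated populations (columns), as log10(CPM + 1) on a color scale, with the control library on the left and the Yap1 cKO library on the right. Snrpn, Ndn and Magel2 are dark in the endoderm columns of both libraries, Dlk1, Meg3, Rian and Mirg are bright there, and Grb10 is brightest in the anterior visceral endoderm column.

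Taken by population, 19 of the 35 genes had their highest CPM in the same population of both libraries. Visceral endoderm-like cells were the highest for 6 (*H19*, *Igf2r*, *Peg10*, *Dlk1*, *Impact*, *Kcnq1ot1*), anterior visceral endoderm-like cells for 4 (*Mirg*, *Grb10*, *Sgce*, *Airn*) and lateral mesoderm-like cells for 4 (*Phlda2*, *Zim1*, *Slc38a4*, *Asb4*). Epiblast-like cells were the highest for 2 (*Snrpn*, *Magel2*), trophoblast-like cells for 2 (*Ascl2*, *Sfmbt2*) and nascent mesoderm-like cells for 1 (*Zdbf2*). For the other 16 the highest population differed between libraries. Among the 19, the intervals of the highest and the next population overlapped in both libraries for *Mirg*, *Airn*, *Zim1* and *Asb4*. They also overlapped for *Kcnq1ot1* in the control library and for *Snrpn* and *Magel2* in the Yap1 cKO library. For *Peg10* and *Dlk1* in the control library, visceral endoderm-like and lateral mesoderm-like cells were not apart. No such count was made for other genes, so these counts describe only the 35.

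Markers of other cells the dissection could have carried were also counted. The 5-gene list for ectoplacental cone and giant cells stood at 75.3 CPM in control trophoblast cells, where 1246 of its 1280 UMIs were in 1 cell, and at 6.22 CPM in Yap1 cKO trophoblast cells. The parietal endoderm list, of which all 5 markers were seen, stood at 184 and 159 CPM in endoderm, spread over many cells (no cell held more than 6.33% of the UMIs), at 459.8 and 469 CPM in anterior visceral endoderm-like cells and at 68.5 and 12.9 CPM in trophoblast, where 504 of the control UMIs were in 1 cell. In endoderm the sum was mostly *Srgn* (604 and 1241 UMIs), *Lamb1* (392 and 1124) and *Lama1* (150 and 350). *Thbd* had 1 UMI there in each library and *Plat* 6 and 15. Maternal decidua markers ran from 1.34 to 12.1 CPM over the lineages. Maternal blood markers were at 3.32 and 87.7 CPM in embryonic cells, 4197 of 4255 UMIs of the latter being in 1 node-like cell. Without these 3 cells no count of imprinted genes given here changed.

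Between genotypes, the embryonic lineage, where *Yap1* was deleted, had 9 of the 35 imprinted genes at least 1.5-fold lower in the Yap1 cKO library and 0 higher. All genes met the same rule in 4.31% of cases for lower and 1.83% for higher. The median log2 ratio of the 35 genes was -0.18, beside -0.06 over all genes. *Peg10* had a ratio of 0.485 (0.451 to 0.521), *Phlda2* 0.542 (0.531 to 0.554) and *H19* 0.565 (0.523 to 0.611). *Igf2* had a ratio of 0.624 (0.562 to 0.692), *Mest* 0.656 (0.628 to 0.685) and *Airn* 0.562 (0.506 to 0.624). The ratio of *Dlk1* was 0.5896 (0.4999 to 0.695), that of *Zim1* 0.521 (0.323 to 0.828) on 50 and 32 UMIs, and that of *Slc22a18* 0.528 (0.3395 to 0.813) on 57 and 37 UMIs. All 9 genes had their highest embryonic level in lateral mesoderm-like or blood progenitor-like cells of both libraries, for *Zim1* and *Slc22a18* on few UMIs. No such count was made for other genes, so this describes the 9 and is not a trait of imprinted genes.

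The makeup of the embryonic lineage moved with these values. Lateral mesoderm-like cells were 56 of 496 control and 32 of 515 Yap1 cKO embryonic cells, and primitive streak-like cells 69 and 124. Ratios within like populations follow, but they do not fully separate fewer cells of a type from less RNA per cell. The populations are gated on marker levels, which can themselves differ between genotypes. For the primitive streak these are *T*, *Mixl1*, *Fgf8* and *Eomes*, and the study reports *Fgf8*, *T* and *Eomes* as raised by *Yap1* loss. The part of makeup in the ratios was not tested. Within lateral mesoderm-like cells the ratio was 0.722 (0.7 to 0.746) for *Phlda2*, 0.749 (0.654 to 0.855) for *H19* and 0.833 (0.697 to 0.992) for *Igf2*. It was 0.637 (0.573 to 0.708) for *Peg10* and 0.571 (0.4698 to 0.691) for *Airn*, each still past 1.5-fold, and 0.778 (0.711 to 0.851) for *Mest*. With the 6 embryonic populations weighted equally in each library, the ratio of *H19* was 0.752, that of *Igf2* 0.836, that of *Phlda2* 0.756 and that of *Peg10* 0.697. Of the 9 genes, only *Slc22a18*, at 0.521, was still past 1.5-fold by that measure.

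Within blood progenitor-like cells the ratios were 0.735 (0.655 to 0.825) for *H19*, 0.833 (0.8003 to 0.866) for *Phlda2* and 0.649 (0.601 to 0.702) for *Mest*. In nascent mesoderm-like cells *H19* went the other way, at 1.46 (1.04 to 2.09), while *Peg10* was at 0.534 (0.433 to 0.658) and *Phlda2* at 0.706 (0.671 to 0.741). Epiblast-like cells gave 0.838 (0.6201 to 1.13) for *H19* and 1.196 (1.001 to 1.43) for *Phlda2*. Of the 52 ratios that the 9 genes gave in the 6 populations, 41 lay nearer 1 than the ratio of the same gene over the whole lineage. The 9 genes were picked by that lineage ratio, some of the 52 rest on few UMIs, and no such count was made for other genes. The count is a description and not a test.

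**Figure D4:**
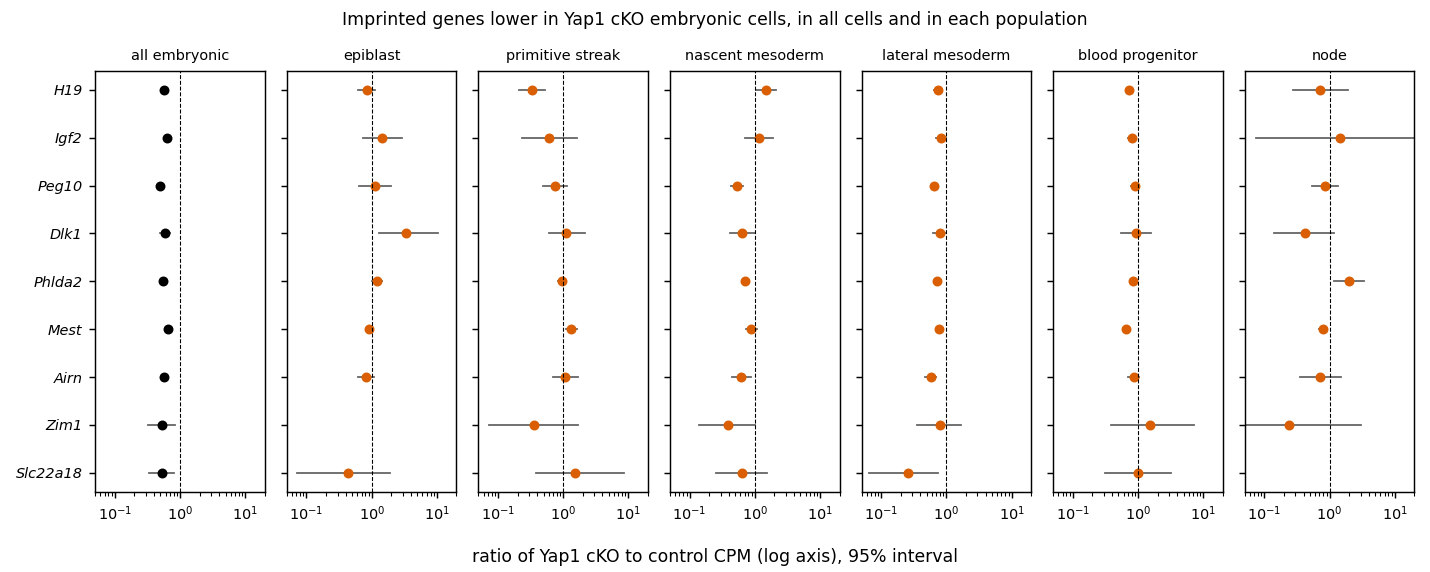
Ratio of Yap1 cKO to control CPM (log axis) for the 9 imprinted genes lower in Yap1 cKO embryonic cells, over the whole lineage and within each of the 6 embryonic populations, with 95% counting intervals. Of 52 population values 43 are higher than the lineage value, by which the genes were picked, with Peg10 at 0.637 and Airn at 0.571 in lateral mesoderm-like cells.

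The share of cells from embryos of each sex moved with the genotype too. Of embryonic cells, 266 control and 94 Yap1 cKO cells were Y-bearing (at least 2 UMIs of 4 Y-linked genes and 0 of *Xist*), and 211 and 399 were *Xist*-bearing. Lateral mesoderm-like cells made up 37 of the 266 and 3 of the 94 Y-bearing cells, against 16 of the 211 and 28 of the 399 *Xist*-bearing cells. Among Y-bearing embryonic cells the ratio of Yap1 cKO to control was 0.358 for *H19*, 0.293 for *Peg10*, 0.507 for *Phlda2* and 0.223 for *Dlk1*. Among *Xist*-bearing ones it was 0.783, 0.773, 0.595 and 0.951 for the same genes in that order. *Phlda2* and *Slc22a18* were the 2 of the 9 genes past 1.5-fold in *Xist*-bearing cells, and *Zim1* turned to 1.27. The part of embryo sex and of single embryos in the genotype ratios was not tested beyond this split.

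**Figure D5:**
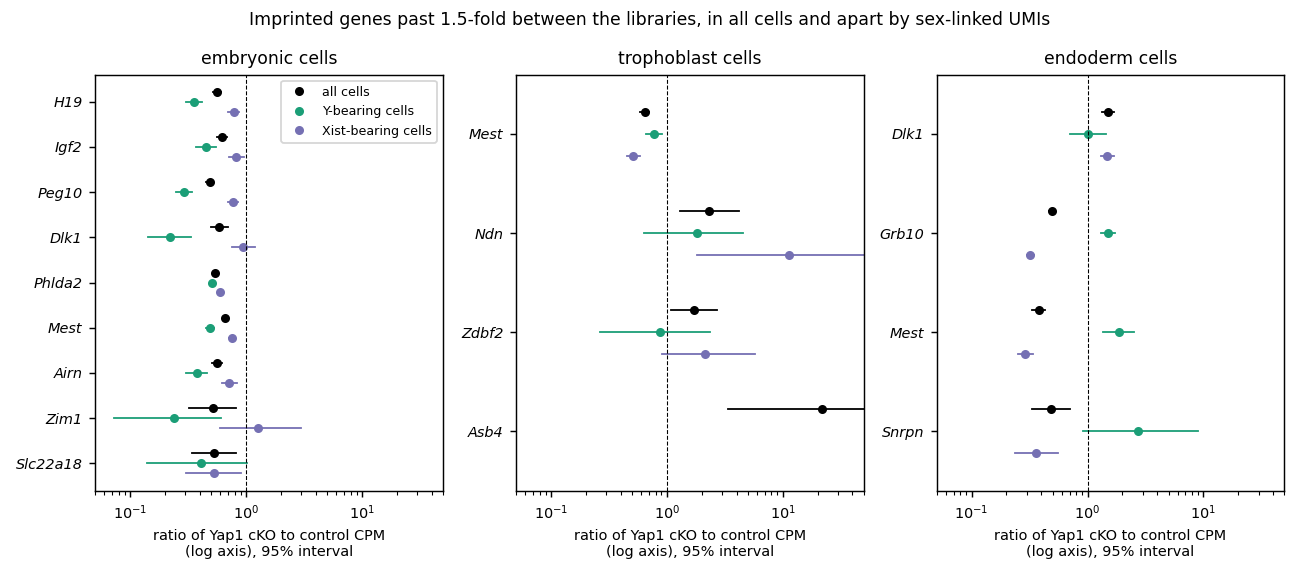
Ratio of Yap1 cKO to control CPM (log axis) in the 3 lineages for the imprinted genes past 1.5-fold in any lineage, in all cells, in Y-bearing cells and in Xist-bearing cells, with 95% counting intervals. In embryonic cells the Y-bearing ratios of H19, Peg10 and Dlk1 lie below the Xist-bearing ones, and in endoderm Grb10 and Mest lie on opposite sides of 1 in the 2 sets.

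In trophoblast, where *Yap1* was at 24.9 and 18.7 CPM, 3 of the 35 genes were at least 1.5-fold higher in the Yap1 cKO library and 1 lower, against 2.62% and 2.05% of all genes. The median log2 ratio was 0.05 for the 35 and -0.04 for all. *Ndn* had 1.18 and 2.71 CPM in control and Yap1 cKO trophoblast, with a ratio of 2.31 (1.29 to 4.22), a call lost in Y-bearing cells (1.81). For *Zdbf2* these levels were 2.18 and 3.75 CPM and the ratio was 1.72 (1.096 to 2.73). The *Zdbf2* call was lost with gates set 2 times higher (1.32) and in Y-bearing cells (0.88). It was also lost with cells weighted equally (1.56) and in *Xist*-bearing cells (2.14), where the interval included 1. *Asb4* had 1 control and 16 Yap1 cKO UMIs, a ratio of 21.7 (3.37 to 909.6), but 15 of those 16 were in 1 cell. Without that cell *Asb4* was at 1.37 and was not called, which left 2 higher genes. The 3 higher genes are all among the 10 that were lower in trophoblast than in embryonic cells, with 16 to 47 UMIs in the Yap1 cKO library, and *Asb4* was at a ratio of 1.395 when gates were set 2 times higher. *Mest* was the lower gene, at 98.4 and 63.3 CPM and a ratio of 0.643 (0.591 to 0.701). Its call was lost with median-ratio scaling (0.669) and in Y-bearing cells (0.778).

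In endoderm, where *Yap1* was at 32.2 and 26.2 CPM but lower in the anterior cells of the Yap1 cKO library, 1 of the 35 was at least 1.5-fold higher and 3 were lower, against 2.01% and 3.92% of all genes. The median log2 ratio was 0.02 for the 35 and -0.03 for all. *Dlk1* was the higher gene, at 60.9 and 91.5 CPM and a ratio of 1.502 (1.34 to 1.68). *Grb10* had 288 and 142 CPM, with a ratio of 0.494 (0.465 to 0.526), *Mest* 76.4 and 29.01, with a ratio of 0.3796 (0.334 to 0.431), and *Snrpn* 7.98 and 3.85, with a ratio of 0.482 (0.329 to 0.711). Anterior visceral endoderm-like cells, in which these 3 genes are high for endoderm, were 20 of 86 control and 24 of 211 Yap1 cKO endoderm cells.

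Within the endoderm populations *Grb10* had a ratio of 0.626 (0.581 to 0.675) in anterior visceral endoderm-like and 0.768 (0.687 to 0.861) in the remaining visceral endoderm-like cells. *Mest* had 0.589 (0.508 to 0.683) and 0.403 (0.311 to 0.522), and *Snrpn* 0.617 (0.338 to 1.13) and 0.536 (0.3199 to 0.912). The second *Mest* value leans on 1 control cell, which held most of the control *Mest* UMIs of the remaining visceral endoderm-like cells. *Dlk1* had 2.26 (1.38 to 3.84) and 1.403 (1.25 to 1.58), with 25 of its 80 Yap1 cKO UMIs in the anterior cells in 1 cell. The level of *Yap1* itself in the anterior cells was 40.02 CPM for the control and 12.7 CPM for the Yap1 cKO library, against 30.7 and 27.7 CPM in the remaining visceral endoderm-like cells. In Y-bearing endoderm cells, 24 control and 17 Yap1 cKO, the ratio was 1.504 for *Grb10* and 1.86 for *Mest*, against 0.321 and 0.2901 in *Xist*-bearing cells. The anterior cells, where both genes are higher, were 5 of those 24 and 7 of those 17. Among *Xist*-bearing endoderm cells they were 14 of 58 control and 12 of 174 Yap1 cKO cells. The part of this makeup in the ratios was not tested.

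Other genotype ratios were seen within single populations or across them. *Grb10* was below 1 in all 9 populations, from 0.605 in node-like to 0.877 in lateral mesoderm-like cells. Among Y-bearing endoderm cells, however, *Grb10* was at 1.504. *Cdkn1c* was above 1.5 in blood progenitor-like cells, at 1.68 (1.37 to 2.06), and in visceral endoderm-like cells, at 1.65 (1.41 to 1.94). *Asb4* was at 1.52 (1.29 to 1.8) in lateral mesoderm-like and 1.57 (1.33 to 1.86) in blood progenitor-like cells, although over the embryonic lineage it was at 1.14 (1.04 to 1.24). *Snrpn* was between 1.05 and 1.28 in the 6 embryonic populations. Such differences of small size cannot be told apart from differences between pools of embryos.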

How the data were processed

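The 2 single-cell libraries of E7 mouse embryos were analysed, control and Yap1 cKO. The authors aligned the reads with Cell Ranger 7.1.0 to mm10, per the labels and the submitters' processing notes, and deposited filtered matrices of UMI counts per gene and barcode. The program was run at its defaults, which count sense-strand reads and, in this version, intronic ones too. Antisense neighbours such as Igf2r and Airn are therefore separated by strand, and a long intronic gene may gain counts.

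Here barcodes with at least 5000 genes and at most 10% mitochondrial counts were kept (0 exceeded the latter), doublets called by scrublet were removed (under 0.5% of cells, in libraries of under 5000 cells), and cells were gated by summed marker CPM: trophoblast at 200 or more, endoderm at 1000 or more and embryonic cells at 200 or more, with populations at 300, or 100 for node and 200 for anterior visceral endoderm. The control library held 70573418 and the Yap1 cKO library 87937858 UMIs, and kept cells held from 15974 to 324147. Embryonic cells also had to lie under 100 CPM of trophoblast and 200 CPM of endoderm markers. An embryonic cell that passed several population gates took the last of them. Their order was epiblast, primitive streak, nascent mesoderm, lateral mesoderm, blood progenitor and node. Cells over the trophoblast gate and under the endoderm gate were counted as trophoblast, whatever their embryonic markers. In the kept cells, 11 control and 12 Yap1 cKO cells passed the endoderm gate together with another lineage gate. A further 17 and 22 fell into no lineage, which can include cells over the embryonic gate that missed those limits. Both sets were left out.

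Counts were summed per population and library and divided by the summed total (CPM). Intervals are exact Poisson for levels, exact conditional binomial for ratios and Clopper-Pearson for shares of cells, at 95%, and cover counting error only. Shares were taken after thinning to 39000 UMIs, and 30 cells of the control and 46 of the Yap1 cKO library under that depth were dropped. A gene was called between lineages at 2-fold in both libraries and between genotypes at 1.5-fold, each with an interval without 1 and at least 20 UMIs. No p-value was computed, since cells of 1 library are not replicates. A count of 0 was given the limit that 3 counts allow. The ratio and interval steps were tested on simulated data.

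The genes, lists and gates were chosen with earlier results of these data known, and gate thresholds after the marker distributions were seen. Genes given in full are those called between lineages and the highest at each locus, the rest by range and count. Names of further lists (imprint maintenance, other imprinted genes, Igf signalling) are in the closing section. Positions came from GENCODE M21 (GRCm38), in which all 35 genes were matched by Ensembl identifier, and promoters from RefSeq. H19, Peg10, Cdkn1c, Impact, Sgce and Nap1l4 had no promoter entry. Alternatives were other gene minimums, gates, scaling, weights, UMI minimums, folds, doublets kept and cells of 1 sex, plus equal weight of populations and removal of 3 cells or of 1 cell, all added after the data were seen. Python 3.11.15, numpy 2.4.6, scipy 1.17.1, pandas 2.3.3, scanpy 1.11.5 and matplotlib 3.10.9 were used.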

Additional observations from a re-analysis of the deposited data

Results flagged for a closer look

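For some imprinted genes the ratio of Yap1 cKO to control lay below 1 in embryonic cells and above 1 in an extraembryonic lineage, or the reverse, with neither counting interval including 1. With 1 library per genotype the difference itself was not tested. Against endoderm, 8 of the 35 genes did so, beside 2.97% of all 17922 genes. *H19* was at 0.565 in embryonic and 1.26 in endoderm cells, *Igf2* at 0.624 and 1.16, and *Peg10* at 0.485 and 1.1. *Dlk1* was at 0.59 and 1.502, *Phlda2* at 0.542 and 1.33, *Meg3* at 0.809 and 1.13, and *Rian* at 0.88 and 1.18. *Snrpn* went the other way, at 1.13 in embryonic and 0.482 in endoderm cells. *Mirg*, the remaining gene of the *Dlk1-Meg3* locus, was not among the 8.

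Against trophoblast, 5 of the 35 genes did so, beside 1.495% of all genes. *Meg3* was at 0.809 in embryonic and 1.197 in trophoblast cells, *Rian* at 0.88 and 1.25 and *Mirg* at 0.768 and 1.35, all 3 from 1 locus. *Phlda2* was at 0.542 and 1.06, and *Zdbf2* at 0.905 and 1.72. In Y-bearing endoderm cells, 24 control and 17 Yap1 cKO, the ratio of *H19* was 0.582 and that of *Phlda2* 0.0535. In *Xist*-bearing ones the ratios were 1.44 and 1.97. Anterior visceral endoderm-like cells, lower in both genes than the remaining visceral endoderm-like cells, were 5 of the 24 and 7 of the 17. Of the *Xist*-bearing endoderm cells they were 14 of 58 control and 12 of 174 Yap1 cKO cells. The parts of embryo sex, single embryos and this makeup were not tested. The embryonic values are shared by both comparisons.

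A lineage ratio lay on different sides of 1 in the libraries for 2 genes, with intervals that did not include 1, and this difference was not tested either. The trophoblast ratio of *Peg3* was 0.837 with control and 1.08 with Yap1 cKO cells, a pattern seen in 0.363% of all genes. The endoderm ratio of *Phlda2* was 0.453 with control and 1.11 with Yap1 cKO cells, a pattern seen in 0.519% of all genes. Lateral mesoderm-like cells, the highest in *Phlda2*, were 56 of 496 control and 32 of 515 Yap1 cKO embryonic cells. With the populations of each lineage weighted equally, *Phlda2* was called at least 2-fold lower in endoderm in both libraries. That weighting also raises the share of anterior visceral endoderm-like cells, the lowest in *Phlda2*. The part of either makeup in the ratio was not tested.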

How the results depend on the processing

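No paired analysis was possible because each genotype had 1 library and no test was made. The counts of genes called between lineages stayed within 1.5 times under every alternative run, at 6 to 10 for higher and 9 to 11 for lower in trophoblast and 11 to 14 and 6 to 9 in endoderm. The genotype counts did not. The 9 genes lower in Yap1 cKO embryonic cells became 4 with cells weighted equally, 1 with populations weighted equally, 1 with the genotype fold raised to 2 and 2 in *Xist*-bearing cells, where 1 gene was higher in place of 0. The 3 lower in endoderm became 6 with either equal weight and 5 in Y-bearing cells, and the 1 higher became 0 with at least 2000 or 6000 genes or the raised fold and 5 in Y-bearing cells. The 3 higher in trophoblast became 1 with gates doubled or in Y-bearing cells and 5 in *Xist*-bearing cells, and the 1 lower became 0 with median-ratio scaling or the raised fold and 5 in Y-bearing cells. In trophoblast and endoderm, none of the genes called between genotypes in Y-bearing cells was called in that direction in all cells. The cause was not tested. Ratios changed direction for *Zdbf2* in trophoblast (0.88) and *Grb10* (1.504), *Mest* (1.86) and *Snrpn* (2.701) in endoderm among Y-bearing cells, and for *Zim1* in embryonic cells (1.28) and *Asb4* in trophoblast (0) among *Xist*-bearing cells. Of single lineage calls, *Impact*, *Plagl1* and *Slc22a18* in endoderm and *Igf2r*, *Airn* and *Dlk1* in trophoblast were lost under an equal weight or in Y-bearing cells. Keeping the doublets added *Nnat* to the genes higher in Yap1 cKO trophoblast (4), leaving out 1 cell removed *Asb4* (2), and another UMI minimum and leaving out 3 cells moved no call. Depth limits *Zim1*, *Slc22a18*, *Plagl1*, *Rasgrf1* and *Magel2*, and in trophoblast *Asb4*, which rest on few UMIs.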

Other observations

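A second list of 36 genes described as imprinted in mouse, of which 31 had at least 20 UMIs, was read the same way. In endoderm 10 of the 31 were at least 2-fold higher than in embryonic cells in both libraries and 5 lower, and in trophoblast 5 were higher and 6 lower. As shares of the 31 these are 32.3% and 16.1% for endoderm and 16.1% and 19.4% for trophoblast, beside 13.5% and 17.2% and 8.13% and 18.5% of all genes, so that both lower shares are close to those of all genes. *Gab1*, a docking protein of growth factor receptors with placental imprinting, had a trophoblast ratio of 6.79 (6.02 to 7.68) with control and 7.09 (6.26 to 8.04) with Yap1 cKO cells, and an endoderm ratio of 8.66 (7.54 to 9.95) and 10.7 (9.601 to 12.02). *Smoc1* and *Jade1* were likewise higher in both extraembryonic lineages, with endoderm ratios of 5.496 and 8.71 for *Smoc1* and 5.55 and 9.74 for *Jade1*. *Ddc*, a decarboxylase gene beside *Grb10*, had endoderm ratios of 14.7 (12.6 to 17.1) and 12.7 (11.1 to 14.5). In Yap1 cKO embryonic cells 4 of the 31 were at least 1.5-fold lower (*Peg12*, *Dcn*, *Rtl1* and *Dio3*, on 3 to 77 UMIs) and 0 higher, beside 4.31% and 1.83% of all genes, and in trophoblast *Pon2* was lower at 0.501 (0.425 to 0.588).

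A list of 22 genes for imprint maintenance also held *Tet1*, *Tet2* and *Tet3*, which act against DNA methylation. Of the 22, 1 was higher and 2 were lower in trophoblast, and 0 were higher and 4 lower in endoderm. These are 4.55% and 9.09% for trophoblast, beside 8.13% and 18.5% of all genes, and 0% and 18.2% for endoderm, beside 13.5% and 17.2%. *Dnmt3l*, the cofactor of the de novo methyltransferases, stood at 1.27 CPM in embryonic and 54.8 in trophoblast cells of the control and at 1.401 and 55.02 in the Yap1 cKO library, ratios of 43.3 (32.6 to 58.8) and 39.3 (30.6 to 51.1). *Dnmt3a*, one of those methyltransferases, went the other way at 0.0756 (0.0625 to 0.0907) and 0.0957 (0.0785 to 0.116), and *Dnmt3b* at 0.442 and 0.388. *Trim28*, the corepressor that ZFP57 recruits, had endoderm ratios of 0.415 (0.384 to 0.449) and 0.456 (0.435 to 0.478). Between genotypes *Dppa3* alone passed 1.5-fold, in embryonic cells, at 0.61 on 44 and 33 UMIs.

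Of 16 genes of Igf signalling, the pathway of *Igf2* and *Igf2r*, 1 was higher and 7 were lower in trophoblast, and 4 were higher and 4 lower in endoderm. These are 6.25% and 43.8% for trophoblast, beside 8.13% and 18.5% of all genes, and 25% each for endoderm, beside 13.5% and 17.2%. The signalling receptor *Igf1r* was at 133 CPM in control embryonic cells, 39.4 in trophoblast and 5.42 in endoderm cells, so that it was low where *Igf2* was high. Its endoderm ratios were 0.0408 (0.0282 to 0.0571) and 0.0523 (0.0428 to 0.0632). The binding protein gene *Igfbp5* was higher in endoderm, at 16.6 (12.95 to 21.3) and 26.4 (20.9 to 33.8), and had 0 UMIs in trophoblast of either library, and the kinase gene *Akt1* was higher in trophoblast at 3.63 and 3.47. In Yap1 cKO embryonic cells *Irs1* was at 0.568 (0.477 to 0.675) and *Igfbp3* at 0.626 (0.549 to 0.714) of control, and in trophoblast *Igfbp2* was at 1.84 (1.46 to 2.31).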
